A study of Glycine max with 12 samples.

Results

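Leaves of soybean plants kept under combined stress, that is water deficit and heat together, were compared with leaves of untreated control plants by RNA sequencing, gene by gene. The comparison covers every gene whose normalized count averaged 10 or more over the 6 libraries involved, which left 32852 of the 55051 genes in the deposited table. Combined stress and control had 3 libraries each, and 3 libraries of heat stress alone and 3 of water deficit alone entered the same fit and serve as points of comparison. All plants were wild-type Magellan, a soybean cultivar, raised in growth chambers. How severe the treatments were, how long they lasted and when leaves were taken was not given in the sources used here. Nothing states that the libraries of a group came from separate plants, so p-values measure only the spread between these samples.

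Water deficit and heat reach a leaf together in most droughts, and they pull it in opposite directions, because closing stomata saves water while open stomata cool the leaf. Heat unfolds proteins, and plant cells answer through heat shock factors, which switch on small heat shock proteins and the larger chaperones of the HSP70 and HSP90 families. Loss of water raises abscisic acid, the hormone under whose control dehydrins, late embryogenesis abundant (LEA) proteins and sugars of the raffinose family accumulate and protect drying cells.

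Between 37386389 and 46186226 reads stood behind each of the 6 libraries, and the median standard error of a log2 change was 0.29. The leaf markers, which were Rubisco small subunit, Rubisco activase and chlorophyll a/b-binding protein genes, passed the filter in 10 of 10 members. The leghemoglobin genes LBA, LBC1, LBC2 and LBC3, which mark root nodules, were at 0 in all 6 libraries. Of 13 genes in the nodule list, 2 passed the filter and 0 were called. NOD33 had 381, 245 and 211 normalized counts in combined stress, against 474, 327 and 615 in control. UR9 had 68.6, 23.2 and 39.2 in combined stress, against 96.9, 73.1 and 56.5 in control. Of seed storage and trypsin inhibitor genes, 0 of 14 passed the filter. Combined stress library 1 stood apart from libraries 2 and 3: among 24908 genes with a mean of at least 100, 188 were at least 4-fold above both others in it and 191 at least 4-fold below, against 12 and 0 in library 2 and 10 and 109 in library 3. Control library 3 had the most such genes among controls, with 3 above and 30 below. A pair of clock genes, chosen after their values were seen, also differed between library 1 and libraries 2 and 3. LCL3, a morning gene of the daily clock, had 308, 1863 and 2112 normalized counts in combined stress libraries 1, 2 and 3, against 416, 412 and 332 in control libraries 1, 2 and 3. GMLUXB, an evening gene, had 337, 38.9 and 42.4 in combined stress and 324, 279 and 427 in control. Library 1 lay near the controls for these 2 genes, and libraries 2 and 3 did not. GMGIA, the clock gene with the highest mean count, showed no such split, with 16784, 15443 and 16287 normalized counts in combined stress, against 16279, 17391 and 11432 in control. Triplets of values are given in library order throughout, and the part that this split had in any result was not tested.

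Combined stress changed the level of many genes in both directions. At a threshold of 0.05 on the adjusted p, limma called 4608 genes (14.0%), 2204 (6.71%) higher in combined stress and 2404 (7.32%) lower. Changes of at least 2-fold made up 3223 of the calls, 1440 higher and 1783 lower, and changes of at least 16-fold 134 and 98. The median log2 change was 1.25 among genes called higher, -1.41 among genes called lower and -0.01 over all genes tested. All 3 combined stress libraries lay on 1 side of all 3 control libraries for 12581 genes (38.3%), above in 18.7% and below in 19.6%, which held 2195 of the genes called higher and 2397 of those called lower. Genes called higher made up 9.42% to 10.9% of the normalized signal in the combined stress libraries, against 3.19% to 3.89% in the control libraries. Genes called lower made up 3.63% to 4.28% in combined stress, against 9.66% to 10.5% in control. The genes were called on these same libraries, so the direction of both contrasts was fixed by the calls. In whole leaves, fewer cells of a type and less RNA per cell cannot be told apart. Calls were spread over the range of abundance: 4.58% of genes with a mean count of 10 to 100 were higher and 7.41% lower, against 6.84% and 7.63% of the 380 genes above 10000. At unadjusted p under 0.05 there were 9848 genes. Without combined stress library 1 the count of calls was 5728, of which 3835 (83.2% of the calls from all libraries) were shared. Leaving out combined stress library 3 gave 2037 calls, control library 1 gave 2220, control library 2 gave 2537 and control library 3 gave 2243. The count without combined stress library 2 was 3182.

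**Figure D1:**
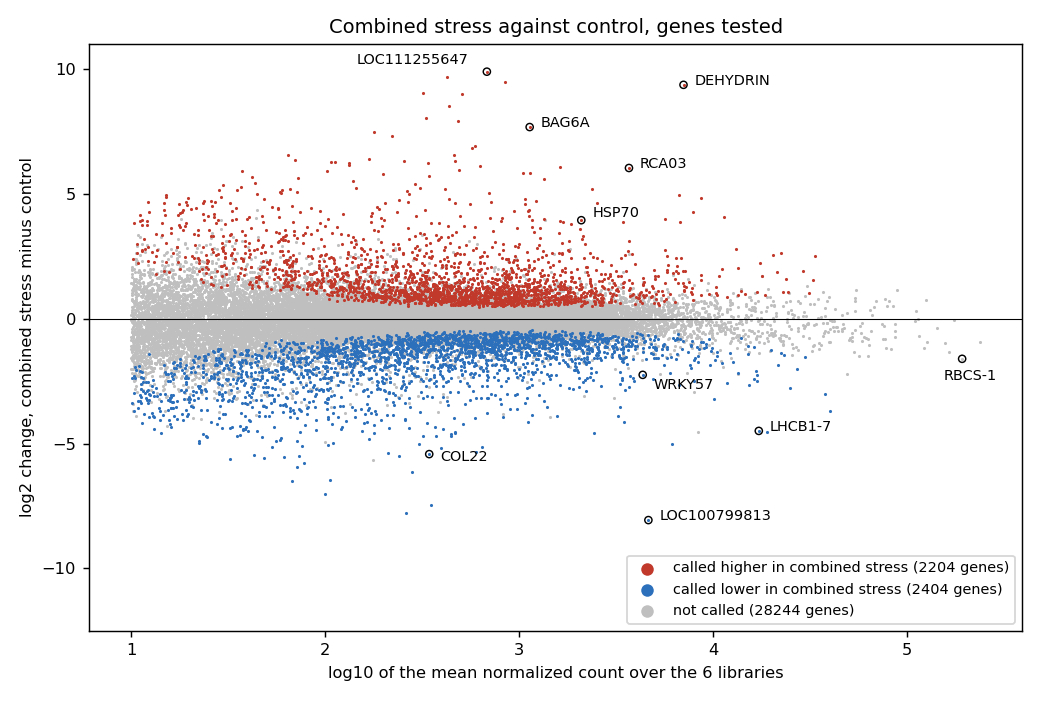
Log2 change of each gene tested, combined stress minus control (vertical axis), against the log10 of its mean normalized count over the 6 libraries (horizontal axis). Red points are the 2204 genes called higher, blue points the 2404 called lower and grey points the genes not called. Circled genes are named, and changes of both signs appear at every level of abundance.

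Several of the largest changes were genes that had almost no reads in one of the groups. LOC111255647 had 1174, 1128 and 1783 normalized counts in combined stress, against 1.76, 0 and 0 in control, a ratio of 2325 with a 95% counting interval of 643 to 19200. LOC548078 had 145, 2358 and 2593 normalized counts in combined stress, against 0, 1.52 and 0 in control, a ratio of 2905 with a counting interval of 804 to 23990. LOC100802855 was at 0 in control and had 782, 599.8 and 1167 normalized counts in combined stress, at least 316-fold higher against a floor of 3 reads per library. LOC102662292 had 763, 546 and 616 normalized counts in combined stress, against 0, 0.762 and 0 in control, a ratio of 2184 with an interval of 391.6 to 86300. The intervals cover counting error only. No combined stress library came near a control library for any of these genes. Only genes whose groups did not overlap were eligible among the largest changes. The function of the genes above was not given in the sources used here. In all, 60 tested genes had at most 3 reads in every control library, and 56 of them were called higher. Of 48 with at most 3 reads in every combined stress library, 36 were called lower. Such genes passed the filter only through the other group, so they had to differ. LOC100814809 was at 0 in all combined stress libraries and had 340.1, 6.10 and 287 in control, where library 2 was far below the others, at least 85.9-fold lower in combined stress. LOC100804613 had 0, 2.49 and 0 normalized counts in combined stress, against 159, 186 and 255 in control, lower by a ratio of 240 with an interval of 81.7 to 1166. LOC100799813 had 199.9, 65.5 and 0.800 normalized counts in combined stress, against 7940.0, 3667 and 15903 in control. The groups did not overlap, as that choice required, and combined stress library 3 held the lowest value. The log2 change was -8.07 ± 1.5 SE (adjusted p = 0.00540 by limma). LOC100802957 and LOC547822 (SGlu2) followed, with log2 changes of -7.79 (limma adjusted p = 0.000456) and -7.45 (limma adjusted p = 0.000352). Both averaged under 10 in combined stress, so they passed the filter through control alone and had to be lower. Fold changes were fitted to log2(value + 1), and the added 1 makes those of low genes too small. The call was lost for LOC100814809 without control library 1 or 3 (limma adjusted p = 0.0635 to 0.0652). Calls were also lost for LOC100814809 under the filter of a mean of at least 100 (adjusted p = 0.0952). The log2 change became 8.75 to 10.83 for LOC548078 without any single combined stress library, -6.07 to -9.47 for LOC100799813 without any single combined stress library, and -7.18 to -9.01 for LOC100802957 without any single combined stress library. It was -6.53 and -8.40 for LOC547822 without combined stress library 1 or 3, -7.62 for LOC100804613 without combined stress library 2, and -5.50 to -8.29 for LOC100814809 without any single control library.

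**Figure D2:**
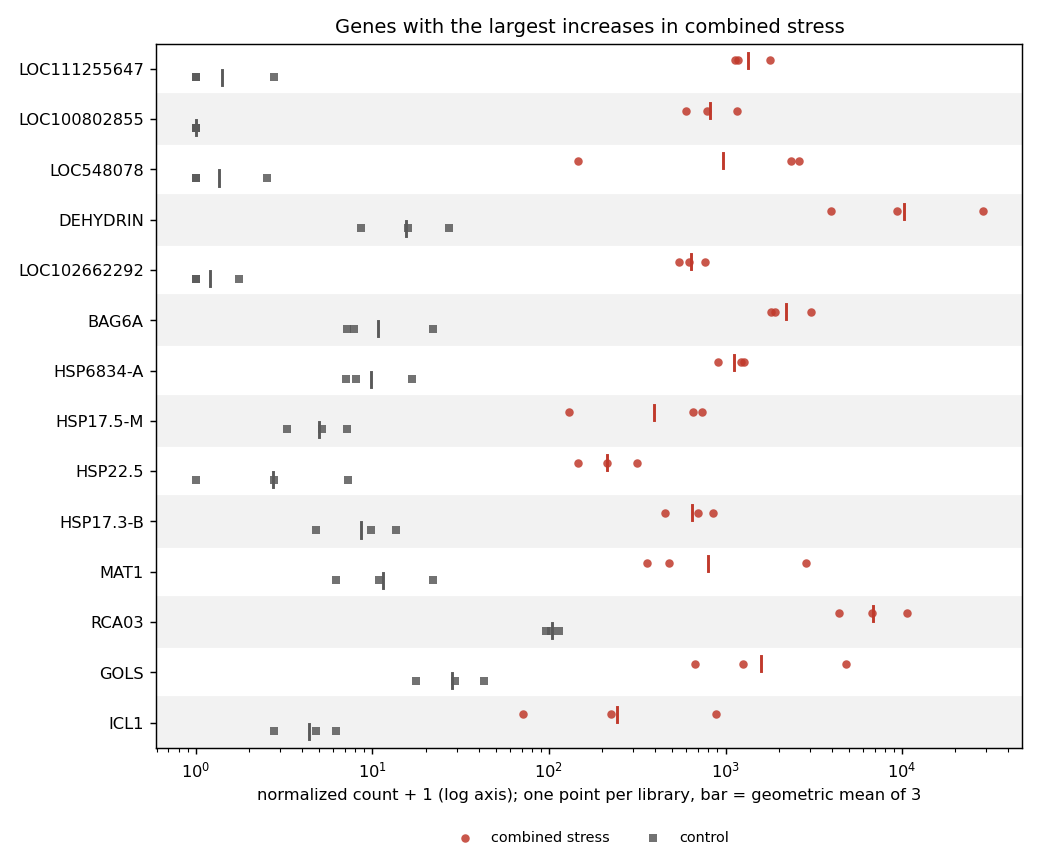
Normalized count + 1 (log axis) in each library for the 14 genes with the largest increases, 5 among all genes and 10 among genes with a name other than LOC, 1 of them in both. Red circles are combined stress libraries, grey squares control libraries, and bars the geometric mean of 3. The groups of every gene are separate because genes were chosen that way. The combined stress libraries spread most widely for LOC548078 and ICL1.

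Small heat shock proteins had the highest median log2 change of all lists, 4.04 against 3.96 for dehydrins, LEA and seed maturation proteins. Of the 10 small heat shock proteins in the table, 9 passed the filter on low values. Of these, which hold unfolding proteins in a soluble state, 8 were called higher and 0 lower, against 6.71% and 7.32% of all genes, with a median log2 change of 4.04. HSP17.5-M, HSP17.3-B and HSP22.5, which averaged under 10 in control, passed the filter through combined stress alone and had to be higher. The values of the list are a description of its tested members. Without combined stress library 1 the list again had 8 higher, with a median of 4.48. HSP17.5-M had 128, 651 and 732 normalized counts in combined stress, against 6.17, 2.29 and 4.18 in control. Combined stress lay far above control in each library, lowest in library 1, with a log2 change of 6.32 ± 0.68 SE (adjusted p = 0.000290 by limma). HSP17.3-B had 850.0, 452 and 697 normalized counts in combined stress, against 8.81, 3.81 and 12.6 in control, and HSP17.5-E, already present in control, had 1133, 1442 and 1439 normalized counts in combined stress, against 126, 142 and 218 in control. Neither overlapped, and their log2 changes were 6.23 ± 0.62 SE (adjusted p = 0.000183 by limma) and 3.07 ± 0.29 SE (adjusted p = 0.000164 by limma). HSP22.3 had 6612, 679 and 666 normalized counts in combined stress, against 32.6, 17.5 and 42.9 in control. It was high in all 3 combined stress libraries but about an order of magnitude higher in library 1 than in libraries 2 and 3, and its log2 change was 5.58 ± 0.91 SE (adjusted p = 0.00275 by limma). The same tilt towards library 1 was seen in HSP18.5-C, with 8630.2, 1592 and 1451 normalized counts in combined stress, against 192, 209 and 288 in control, and a log2 change of 3.58 ± 0.59 SE (adjusted p = 0.00286 by limma). HSP22.5, HSP22.0 and HSP17.6-L completed the calls, with log2 changes of 6.29, 4.04 and 3.82 (limma adjusted p = 0.00156, 0.0111 and 0.0137). HSP23.9, the member with the highest mean count, had 13859, 1924 and 1723 normalized counts in combined stress, against 853, 841 and 1341 in control, did not overlap, and was not called (log2 change 1.86, limma adjusted p = 0.122). HSP6834-A, another heat shock protein gene outside the list, had 902, 1219 and 1274 normalized counts in combined stress, against 7.05, 6.10 and 15.7 in control, with no overlap and a log2 change of 6.83 ± 0.57 SE (adjusted p = 7.21e-05 by limma). It too averaged under 10 in control, passed the filter through combined stress alone and had to be higher. Calls ended for HSP17.6-L without combined stress library 3, or control library 2 (limma adjusted p = 0.0537 to 0.0649). By leaving out a library the log2 change came to 7.12 for HSP17.5-M without combined stress library 1, 4.48 for HSP22.3 without combined stress library 1, and 2.74 for HSP18.5-C without combined stress library 1. It was 5.57 and 7.0 for HSP22.5 without control library 2 or 3.

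Large chaperones were split. BAG6A, a co-chaperone of the BAG family that works with HSP70, had 3044, 1815 and 1896 normalized counts in combined stress, against 6.17, 6.86 and 20.9 in control. The combined stress libraries were far above the controls in every case, with a log2 change of 7.67 ± 0.56 SE (adjusted p = 4.25e-05 by limma). HSP70, which refolds proteins with the help of ATP, had 3331, 3689 and 4742 normalized counts in combined stress, against 194, 299 and 273 in control. The groups were well apart and the spread within each was small, with a log2 change of 3.94 ± 0.33 SE (adjusted p = 7.57e-05 by limma). HSP90A1 (LOC100811234), a cytosolic HSP90, had 24189, 4331 and 3790.2 normalized counts in combined stress, against 357, 535 and 508 in control. Library 1 of combined stress carried far more than libraries 2 and 3, although all 3 exceeded control, and the log2 change was 4.0 ± 0.96 SE (adjusted p = 0.0186 by limma). HSP90A2 (LOC100784477) showed the same order, with 8633, 1728 and 1571 normalized counts in combined stress, against 250.2, 405 and 243 in control, and a log2 change of 3.29 ± 0.86 SE (adjusted p = 0.0267 by limma). HOP1, which bridges HSP70 and HSP90, was lower, with 97.5, 134 and 89.7 normalized counts in combined stress, against 206, 185 and 211 in control, and a log2 change of -0.92 (limma adjusted p = 0.0253). DNAJ, a co-chaperone of HSP70 and the member with the highest mean count, had 21946, 5506 and 6682 normalized counts in combined stress, against 11779.7, 9298 and 14418 in control, overlapped and was not called (log2 change -0.32, limma adjusted p = 0.741). In all, 4 of 11 members were higher and 1 lower, against 6.71% and 7.32% of all genes. The list had 2 higher without control library 1 or 3, and 0 lower without combined stress library 3, or any single control library. Calls did not hold for HSP90A1 without control library 1 or 3, HSP90A2 without combined stress library 1, or any single control library, and HOP1 without combined stress library 3, or any single control library (limma adjusted p = 0.0543 to 0.107). Other settings ended calls for HOP1 with equal totals (adjusted p = 0.0592). Log2 changes moved to 3.14 for HSP90A1 without combined stress library 1, and 2.50 for HSP90A2 without combined stress library 1.

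Of heat shock factors, the transcription factors that bind heat shock genes, 5 of 34 were higher and 1 lower. This stands against 6.71% and 7.32% of all genes, and the median log2 change of the list was 0.16. GMHSF-34 had 715, 495 and 478 normalized counts in combined stress, against 6.17, 10.7 and 26.1 in control. All combined stress libraries exceeded all controls, with a log2 change of 5.4 ± 0.51 SE (adjusted p = 0.000135 by limma). GMHSF-30 had 615, 311 and 242 normalized counts in combined stress, against 20.3, 4.57 and 24.1 in control, with no overlap and a log2 change of 4.65 ± 0.85 SE (adjusted p = 0.00510 by limma). GMHSF-22 and GMHSF-35 rose less, with log2 changes of 2.25 (limma adjusted p = 0.00107) and 1.53 (limma adjusted p = 0.00130), and GMHSF-37, a low gene, was lower, with -2.39 (limma adjusted p = 0.0321). GMHSF-37 averaged under 10 in combined stress, so it passed the filter through control alone and had to be lower. GMHSF-08, the member with the highest mean count, had 14175, 515 and 531 normalized counts in combined stress, against 784, 693 and 691 in control. Its high mean came from combined stress library 1 alone, the other libraries of that group lay below control, and it was not called (log2 change 1.12, limma adjusted p = 0.575). The list had 8 higher without heat stress library 3, and 0 lower without combined stress library 3, or any single control library. No call was made for GMHSF-37 without combined stress library 1 or 3, or any single control library (limma adjusted p = 0.0602 to 0.112). Processing choices ended calls for GMHSF-37 with a pseudocount of 10 (adjusted p = 0.0583). A library left out put the log2 change at 3.96 for GMHSF-30 without control library 2.

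Dehydrins, LEA proteins and seed maturation proteins, which accumulate in drying seeds and leaves, were the other strongly raised list, with 11 of 23 tested members higher and 0 lower, against 6.71% and 7.32% of all genes and a median log2 change of 3.96. The table held 38 members, and one that passed the filter through combined stress alone had to differ, so these values are a description of the tested members. DEHYDRIN had 28753, 3982 and 9348 normalized counts in combined stress, against 15, 7.62 and 26.1 in control. Every combined stress library was far above every control library, with library 1 the highest, and the log2 change was 9.36 ± 1.26 SE (adjusted p = 0.00104 by limma). MAT1, a seed maturation protein, had 2873, 357 and 480.3 normalized counts in combined stress, against 21.1, 9.90 and 5.23 in control, and again library 1 stood highest with no overlap (log2 change 6.11 ± 0.71 SE, limma adjusted p = 0.000456). PM35 had 325, 92.0 and 401 normalized counts in combined stress, against 2.64, 1.52 and 12.6 in control, with combined stress library 2 the lowest of its group but above all controls (log2 change 5.53 ± 1.2 SE, limma adjusted p = 0.0107). PM27 had 97.5, 20.7 and 60 in combined stress and 1 read in the 3 control libraries together, a ratio of 202 with a counting interval of 35.9 to 8028. PM3 likewise had 45.4, 39.8 and 30.4 in combined stress and 2 reads in control, a ratio of 65.4 (17.8 to 546). PM16 was higher too (log2 change 4.88, limma adjusted p = 0.00339), and LEA5, PM12, PGMPM10, PM41 and GMPM9 were the remaining calls. GMPM9 was at 0 in control and at least 8.48-fold higher, and with it at that bound the median of the list was 3.18. PM37, with the highest mean count of the list, had 21653, 7649 and 11183 normalized counts in combined stress, against 11556, 12732 and 10987 in control, which overlapped (log2 change 0.07, limma adjusted p = 0.933). The list had 5 to 7 higher without combined stress library 2 or 3, or control library 1 or 2, and 1 or 2 lower without combined stress library 1, or water deficit library 3. Its median without combined stress library 1 was 3.05. The call was lost for PM3 without any single one of the 6 libraries, PGMPM10 without combined stress library 2 or 3, or control library 1 or 2, PM12 without control library 1 or 2, LEA5 without combined stress library 2 or 3, or any single control library, PM41 without combined stress library 1 or 3, or control library 1 or 2, and GMPM9 without any single combined stress library, or any single control library, or heat stress library 1 or 2, or water deficit library 2 (limma adjusted p = 0.0527 to 0.124). Calls also ended for PM3 with a pseudocount of 10 (adjusted p = 0.0781) and GMPM9 with edgeR, with a pseudocount of 10 and with quantile normalization (adjusted p up to 0.176). The log2 change became 8.62 and 10.04 for DEHYDRIN without combined stress library 1 or 2, 5.18 for MAT1 without combined stress library 1, and 6.18 and 6.25 for PM35 without combined stress library 2, or control library 3. It was 5.97 for PM27 without combined stress library 2, 5.67 for PM16 without control library 3, and 3.74 and 3.80 for PGMPM10 without combined stress library 3, or control library 2. It was 3.24 and 5.16 for PM12 without combined stress library 1 or 2, 3.49 and 4.74 for LEA5 without combined stress library 1 or 3, and 3.11 and 4.82 for PM41 without combined stress library 1 or 2.

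Among enzymes of protective sugars, the first and a later step of the raffinose family rose. GOLS, galactinol synthase, which makes the donor for raffinose synthesis, had 4804, 1249 and 672 normalized counts in combined stress, against 28.2, 41.9 and 16.7 in control. STS, stachyose synthase, which extends raffinose, had 3831, 1477 and 1840.3 normalized counts in combined stress, against 176, 159 and 191 in control. Both genes were higher in each combined stress library than in any control library, with library 1 the highest, and their log2 changes were 5.82 ± 1.06 SE (adjusted p = 0.00482 by limma) and 3.63 ± 0.41 SE (adjusted p = 0.000394 by limma). MIPS4, inositol phosphate synthase, which feeds galactinol synthesis, had 19994, 1223 and 160.1 normalized counts in combined stress, against 9877, 7751 and 4801 in control. Combined stress library 1 lay above all controls and libraries 2 and 3 below them, and the gene was not called (log2 change -2.18, limma adjusted p = 0.271). In the sugar and raffinose list 3 of 9 members were higher and 0 lower, against 6.71% and 7.32% of all genes. The sugar list had 1 lower without combined stress library 1, or heat stress library 3. Sugar transporters of the SWEET family, which let sucrose and hexoses out of cells, had 7 of 19 tested members, of 44 in the table, higher and 0 lower. A member low in control, such as GMSWEET17, passed the filter through combined stress alone and had to be higher. These counts are a description of the tested members. GMSWEET20 had 4745, 7277 and 7857 normalized counts in combined stress, against 991, 709 and 576 in control, and GMSWEET15, the member with the highest mean count, had 10797, 5351 and 13049 normalized counts in combined stress, against 3172, 3583 and 3330.3 in control. Neither pair of groups overlapped, and the log2 changes were 3.13 ± 0.58 SE (adjusted p = 0.00539 by limma) and 1.44 ± 0.36 SE (adjusted p = 0.0230 by limma). GMSWEET17 was low in control, with 102, 133 and 180.1 normalized counts in combined stress, against 4.41, 11.4 and 0 in control, and a log2 change of 5.06 ± 0.89 SE (adjusted p = 0.00394 by limma). The other 4 called members were GMSWEET41, GMSWEET4, GMSWEET13 and GMSWEET50. The SWEET list had 2 or 3 higher without combined stress library 3, or any single control library, and 1 lower without heat stress library 3. Calls ended for GMSWEET15 without combined stress library 3, or any single control library, GMSWEET41 without combined stress library 2 or 3, or any single control library, or heat stress library 2, or any single water deficit library, GMSWEET4 without combined stress library 2 or 3, or any single control library, or water deficit library 2, GMSWEET13 without combined stress library 1 or 3, or any single control library, and GMSWEET50 without combined stress library 3, or control library 1 or 3 (limma adjusted p = 0.050 to 0.178). Calls were also lost for GMSWEET41 with the 6 compared libraries alone and with a pseudocount of 0.5 (adjusted p up to 0.0720) and GMSWEET4 with a pseudocount of 10 (adjusted p = 0.0576). By leaving out a library the log2 change came to 5.03 and 6.45 for GOLS without combined stress library 1 or 3, 4.05 and 5.86 for GMSWEET17 without control library 2 or 3, and 3.08 to 5.25 for GMSWEET41 without combined stress library 1 or 3, or control library 1. It was 2.70 and 4.02 for GMSWEET4 without combined stress library 1 or 3.

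Proline, an amino acid that accumulates in dehydrated leaves, is made by P5CS and P5CR and removed by proline dehydrogenases. Of the 5 genes listed under those names, 0 were called by limma, edgeR or DESeq2, and 1 had an unadjusted p under 0.05. Limma called 1 higher without water deficit library 3. P5CS had 238, 385 and 265 normalized counts in combined stress, against 159, 184 and 165 in control, above control in each library but not called (log2 change 0.77, limma adjusted p = 0.158), and P5CR, with the highest mean count, had a log2 change of -0.19 (limma adjusted p = 0.636). ALDH18B1 and ALDH18B3, named after the aldehyde dehydrogenase family whose plant members are P5CS enzymes, were strongly raised. ALDH18B1 (LOC100798598) had 2838, 2189.7 and 4511 normalized counts in combined stress, against 61.7, 48.0 and 29.3 in control. ALDH18B3 (LOC100797414) had 3463, 1013 and 911 normalized counts in combined stress, against 79.3, 76.2 and 65.9 in control. Each combined stress library was far above each control library for both, with log2 changes of 6.07 ± 0.59 SE (adjusted p = 0.000164 by limma) and 4.31 ± 0.44 SE (adjusted p = 0.000208 by limma). Other aldehyde dehydrogenases, which oxidise reactive aldehydes, moved in both directions, 9 of 46 higher and 6 lower in all, against 6.71% and 7.32% of all genes. ALDH3J3 (LOC100798020) had 8752, 4548 and 5813 normalized counts in combined stress, against 929.5, 1000.4 and 883 in control, and rose by a log2 change of 2.71 ± 0.44 SE (adjusted p = 0.00281 by limma). ALDH11A2 (LOC100789100) and ALDH11A1 (LOC100780041) rose by 1.83 (limma adjusted p = 0.000212) and 1.73 (limma adjusted p = 0.00130). ALDH2C1 (LOC100817721) fell, with 174, 85.3 and 78.4 normalized counts in combined stress, against 741, 802 and 538 in control, and a log2 change of -2.69 ± 0.43 SE (adjusted p = 0.00244 by limma). Glyoxalases, which clear methylglyoxal, had 6 of 28 members higher and 1 lower. GMGLYII-2 had 66.9, 72.9 and 122 normalized counts in combined stress, against 0.881, 3.81 and 1.05 in control, with no overlap and a log2 change of 5.01 ± 1.02 SE (adjusted p = 0.00859 by limma). It averaged under 10 in control, so it passed the filter through combined stress alone and had to be higher. The glyoxalase counts are a description of the tested members. GMGLYII-7 had 1496, 2380.3 and 3141 normalized counts in combined stress, against 456, 493 and 429 in control (log2 change 2.28, limma adjusted p = 0.00741), and GMGLYI-16 was the member that fell (log2 change -1.18, limma adjusted p = 0.00153). Aldehyde dehydrogenases had 5 higher without combined stress library 3, or control library 2, and 2 or 3 lower without combined stress library 2 or 3, or any single control library. Glyoxalases had 3 higher without control library 1, and 2 or 3 lower without combined stress library 1, or heat stress library 1 or 3. Log2 changes moved to 3.69 for ALDH18B3 without combined stress library 1.

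In abscisic acid signalling, 1 of 7 members was higher and 2 lower, against 6.71% and 7.32% of all genes. GMCYP707A1A, which breaks the hormone down, had 78.5, 74.6 and 86.5 normalized counts in combined stress, against 18.5, 14.5 and 13.6 in control, tight within each group and without overlap (log2 change 2.30 ± 0.44 SE, limma adjusted p = 0.00651). AREB3-2 (LOC100811685), a bZIP factor, had 24.8, 24 and 23.2 normalized counts in combined stress, against 70.5, 64.8 and 66.9 in control, and a log2 change of -1.45 (limma adjusted p = 0.0192). The list had 0 or 1 lower without combined stress library 2 or 3, or any single control library, or water deficit library 1 or 2. Calls did not hold for AREB3-2 without combined stress library 3, or any single control library (limma adjusted p = 0.0565 to 0.0703).

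Photosynthesis genes were lower or not called, with the exception of a Rubisco activase. RCA03, which keeps the carbon-fixing enzyme Rubisco in its active form, had 4419, 6710.0 and 10619 normalized counts in combined stress, against 101, 113 and 95.2 in control. All combined stress libraries were far above all control libraries, and the log2 change was 6.03 ± 0.59 SE (adjusted p = 0.000164 by limma). The other activase genes were not called. RCA14 had 2998, 12587 and 14445 normalized counts in combined stress, against 2408, 2359.6 and 2572 in control, with no overlap but a wide spread, and a log2 change of 1.74 (limma adjusted p = 0.0897). RCAALPHA, RCABETA and RCA11 had log2 changes of 0.71 (limma adjusted p = 0.410), -0.20 (limma adjusted p = 0.838) and -0.51 (limma adjusted p = 0.529). LHCB1-7, a light-harvesting protein of photosystem II, had 2818, 3277 and 245 normalized counts in combined stress, against 24645, 20568 and 51398 in control. Combined stress was below control in every library, most of all in library 3, with a log2 change of -4.49 ± 0.86 SE (adjusted p = 0.00632 by limma). LOC100793702 (Cab-6) and LOC547819 (LHCP), also chlorophyll a/b-binding proteins, had log2 changes of -2.76 ± 0.52 SE (adjusted p = 0.00560 by limma) and -4.16 ± 0.90 SE (adjusted p = 0.0112 by limma). The Rubisco small subunit RBCS-1 had 166878, 81539 and 48856 normalized counts in combined stress, against 230955, 188478 and 432675 in control, below control in each library but not called (log2 change -1.61, limma adjusted p = 0.106). In all, 1 of 14 members was higher and 3 lower, against 6.71% and 7.32% of all genes, with a median log2 change of -0.95. The photosynthesis list had 2 higher without combined stress library 1, or heat stress library 3, and 5 lower without combined stress library 1. ELIP, an early light-induced protein that protects leaves from excess light, rose, with 44688, 31127 and 24787 normalized counts in combined stress, against 8599, 7557 and 10866 in control, and a log2 change of 1.87 ± 0.30 SE (adjusted p = 0.00276 by limma). SGR2 and SGR1, the stay-green genes that start chlorophyll breakdown, had 2974, 1970.2 and 3115 normalized counts in combined stress, against 929, 626 and 656 in control for SGR2, and 2237, 2104 and 2604 normalized counts in combined stress, against 901, 717 and 734 in control for SGR1. Both were above control in every library, with log2 changes of 1.86 ± 0.34 SE (adjusted p = 0.00474 by limma) and 1.56 ± 0.25 SE (adjusted p = 0.00247 by limma). No call was made for LOC547819 without control library 3 (limma adjusted p = 0.0529). A library left out put the log2 change at -3.29 and -5.15 for LHCB1-7 without combined stress library 2 or 3, and -2.82 and -5.03 for LOC547819 without combined stress library 1 or 3.

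Carbon and nitrogen metabolism shifted at single steps. ICL1, isocitrate lyase of the glyoxylate cycle, through which cells draw carbon from lipids, had 70.2, 224 and 881 normalized counts in combined stress, against 1.76, 3.81 and 5.23 in control. Each combined stress library exceeded each control library, as its choice among the largest increases required. Library 3 did so by the most, and the log2 change was 5.79 ± 1.10 SE (adjusted p = 0.00612 by limma). ICL1 averaged under 10 in control, so it passed the filter through combined stress alone and had to be higher. AS1, asparagine synthetase, which stores nitrogen as asparagine, had 7589, 691 and 2259.7 normalized counts in combined stress, against 386, 92.2 and 124 in control, with library 1 far above the others and a log2 change of 3.79 ± 0.95 SE (adjusted p = 0.0224 by limma). GS1-GAMMA, a cytosolic glutamine synthetase, which captures ammonium, fell. It had 42.1, 17.4 and 7.20 normalized counts in combined stress, against 415, 278 and 523 in control. The groups did not overlap, as its choice among the largest decreases required. The log2 change was -4.40 ± 0.59 SE (adjusted p = 0.00103 by limma). INR2, an inducible nitrate reductase and the member with the highest mean count, had 2182, 6853 and 2118 normalized counts in combined stress, against 15731, 16622 and 26767 in control, lower in each combined stress library (log2 change -2.60 ± 0.61 SE, limma adjusted p = 0.0163). NIR, nitrite reductase, the next enzyme of the same path, was instead higher, with 1507, 1706 and 1657 normalized counts in combined stress, against 549.8, 527 and 801 in control, and a log2 change of 1.40 ± 0.23 SE (adjusted p = 0.00283 by limma). PPCK1, the kinase that activates PEP carboxylase, had 1339, 1365 and 2193 normalized counts in combined stress, against 292, 243 and 420.5 in control (log2 change 2.35 ± 0.28 SE, limma adjusted p = 0.000537). Of the nitrogen list, 4 of 29 members were higher and 3 lower, against 6.71% and 7.32% of all genes. It had 2 higher without combined stress library 3, or control library 2 or 3, and 1 lower without control library 3. The call was lost for AS1 without combined stress library 1 or 3, or control library 2 or 3, and INR2 without combined stress library 3, or control library 3 (limma adjusted p = 0.0537 to 0.0811). Other settings ended calls for ICL1 under the filter of a mean of at least 100 (adjusted p = 0.0512). The log2 change became 4.86 and 6.67 for ICL1 without combined stress library 1 or 3, 2.92 to 4.65 for AS1 without combined stress library 1 or 2, or control library 1, and -3.80 and -5.00 for GS1-GAMMA without combined stress library 1 or 3.

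**Figure D3:**
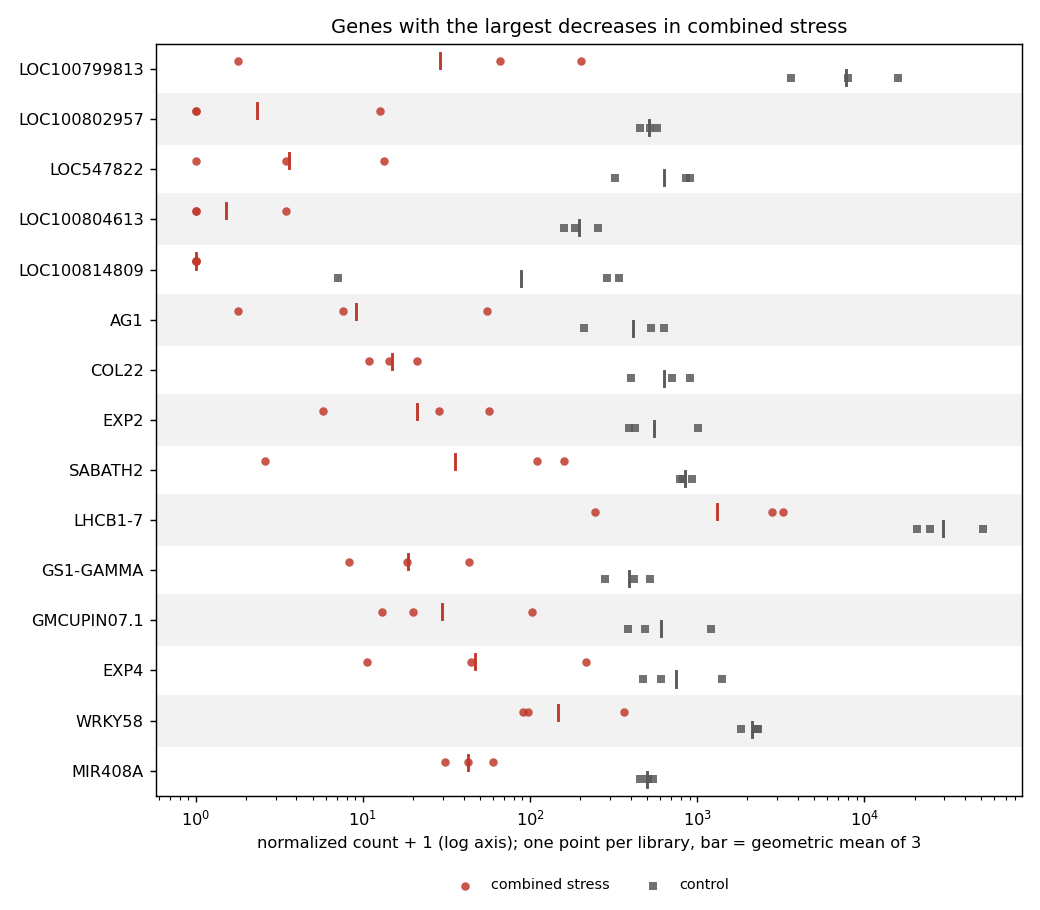
Normalized count + 1 (log axis) in each library for the 15 genes with the largest decreases, 5 among all genes and 10 among genes with a name other than LOC. Red circles are combined stress libraries, grey squares control libraries, and bars the geometric mean of 3. The groups of every gene are separate because genes were chosen that way. The combined stress libraries spread most widely for LOC100799813, SABATH2 and AG1.

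Genes of the growing cell wall were lower or not called, and none was called higher. Among expansins, which loosen walls, and proline-rich wall proteins, 4 of 10 members were lower and 0 higher, against 7.32% and 6.71% of all genes, with a median log2 change of -1.71. The summed normalized counts of the list did not fall. They were 30763, 54584 and 49314.5 in combined stress, against 29733, 21585 and 35971 in control. EXP2 had 56.2, 27.3 and 4.80 normalized counts in combined stress, against 388, 424 and 1012 in control, and every combined stress library was below every control library (log2 change -4.71 ± 0.71 SE, limma adjusted p = 0.00175). EXP4 had 215, 43.1 and 9.61 normalized counts in combined stress, against 1404, 476 and 609.8 in control, with a wide spread in combined stress and a log2 change of -4.0 ± 1.11 SE (adjusted p = 0.0345 by limma). PRP and PRP2 had log2 changes of -2.79 (limma adjusted p = 0.0130) and -1.27 (limma adjusted p = 0.0341), and PRP3, the member with the highest mean count, was not called (log2 change 0.78, limma adjusted p = 0.205). The list had 1 or 2 lower without combined stress library 2 or 3, or any single control library. Aquaporins, the channels through which water crosses membranes, moved both ways, with 4 of 44 higher and 6 lower, against 6.71% and 7.32% of all genes. PIP1-1 (LOC100803259), of the plasma membrane, had 578, 607 and 314 normalized counts in combined stress, against 1259.9, 1328 and 1598 in control, and fell (log2 change -1.53 ± 0.26 SE, limma adjusted p = 0.00347). PIP1-8 (LOC100791447) had 103, 162 and 192 normalized counts in combined stress, against 37.9, 22.9 and 38.7 in control, and rose (log2 change 2.16 ± 0.47 SE, limma adjusted p = 0.0115). PIP1-7 (LOC100780145), with the highest mean count, had 27747, 19549 and 29284 normalized counts in combined stress, against 12945, 14017 and 14492 in control, above control in each library but not called (log2 change 0.86, limma adjusted p = 0.131). LOC100527509 (TIP1-8), of the vacuole membrane, fell, with a log2 change of -2.20 (limma adjusted p = 0.0254). The aquaporin list had 1 or 2 higher without any single combined stress library, or control library 1 or 2, or heat stress library 1 or 2, or water deficit library 2, but 7 without heat stress library 3, and 2 or 3 lower without combined stress library 3, or control library 1 or 3. AG1 and SABATH2, a member of the SABATH methyltransferases, were also among the largest decreases. AG1 had 54.5, 6.63 and 0.800 normalized counts in combined stress, against 529, 210.3 and 636 in control (log2 change -5.50 ± 1.31 SE, limma adjusted p = 0.0178), and SABATH2 had 158, 109 and 1.6 normalized counts in combined stress, against 927, 784 and 820.0 in control (log2 change -4.56 ± 1.37 SE, limma adjusted p = 0.0462). Calls ended for EXP4 without combined stress library 2 or 3, or any single control library, or water deficit library 1, PRP without combined stress library 3, or control library 1, PRP2 without combined stress library 2 or 3, or any single control library, PIP1-8 without combined stress library 3, LOC100527509 and AG1 without combined stress library 3, or control library 1 or 3, and SABATH2 without combined stress library 3, or any single control library, or heat stress library 1, or any single water deficit library (limma adjusted p = 0.0507 to 0.139). Processing choices ended calls for EXP4 with edgeR and with no variance trend (adjusted p up to 0.0777), PRP2 with no variance trend (adjusted p = 0.0501) and SABATH2 with edgeR, with no filter on low values, with no variance trend and with the 6 compared libraries alone (adjusted p up to 0.0703). By leaving out a library the log2 change came to -3.78 and -5.43 for EXP2 without combined stress library 1 or 3, -2.93 and -5.10 for EXP4 without combined stress library 1 or 3, and -4.33 and -6.81 for AG1 without combined stress library 1 or 3. It was -2.67 to -5.64 for SABATH2 without any single combined stress library.

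WRKY factors, transcription factors best known from defence and stress signalling, had 11 of 60 members lower and 1 higher, against 7.32% and 6.71% of all genes, and 11 were lower without combined stress library 1. WRKY57, the member with the highest mean count, had 2173, 1426 and 1066 normalized counts in combined stress, against 6960.3, 6695 and 7647 in control. WRKY58 had 365, 89.5 and 96.1 normalized counts in combined stress, against 2282, 1822 and 2326 in control. Both were several-fold below control in every library, with log2 changes of -2.25 ± 0.29 SE (adjusted p = 0.000830 by limma) and -3.85 ± 0.66 SE (adjusted p = 0.00357 by limma). WRKY24 was the member called higher, by a log2 change of 0.57 (limma adjusted p = 0.0439). The WRKY list had 0 higher without combined stress library 2 or 3, or any single control library, or heat stress library 1 or 2, or water deficit library 1, but 2 without combined stress library 1, and 17 lower without heat stress library 3. CONSTANS-like factors, which take part in flowering and light responses, had 3 of 13 members lower and 1 higher. COL22 had 9.91, 13.3 and 20 normalized counts in combined stress, against 399, 709 and 911 in control, close together in combined stress and far below control (log2 change -5.42 ± 0.40 SE, limma adjusted p = 4.32e-05). CONSTANS-like factors had 2 higher without combined stress library 1, or heat stress library 3. COL10 and COL8 fell, with log2 changes of -1.40 (limma adjusted p = 0.00347) and -1.08 (limma adjusted p = 0.00866), LOC100804738 (COL20) rose by 3.40 (limma adjusted p = 0.00382), and COL21, with the highest mean count, was not called (log2 change 0.68, limma adjusted p = 0.311). Calls did not hold for WRKY24 without combined stress library 2 or 3, or any single control library, or heat stress library 1 or 2, or water deficit library 1 (limma adjusted p = 0.0514 to 0.144). Calls also ended for WRKY24 with no variance trend and with equal totals (adjusted p up to 0.0723). Log2 changes moved to -4.51 for WRKY58 without combined stress library 1.

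Other transcription factor families were near the background or moved both ways. NAC factors had 4 of 35 higher and 2 lower, against 6.71% and 7.32% of all genes, and NAC3 had 1187, 1518 and 2018 normalized counts in combined stress, against 562, 287 and 249 in control (log2 change 2.16 ± 0.49 SE, limma adjusted p = 0.0140). LOC100811301 (GmNAC085) rose by 2.89 (limma adjusted p = 0.0345), NAC15 fell (log2 change -1.61, limma adjusted p = 0.0218), and NAC2, with the highest mean count, was not called (log2 change 1.07, limma adjusted p = 0.108). MYB factors had 5 of 60 in each direction, with MYB173 the most raised at 206, 264 and 374 normalized counts in combined stress, against 42.3, 31.2 and 18.8 in control (log2 change 3.18 ± 0.55 SE, limma adjusted p = 0.00372). MYB142, a low gene, had the largest fall (log2 change -3.27, limma adjusted p = 0.0314). It averaged under 10 in combined stress, so it passed the filter through control alone and had to be lower. bZIP factors had 9 of 82 higher and 7 lower. BZIP64 had 1995, 592 and 893 normalized counts in combined stress, against 170.0, 173 and 141 in control, and BZIP80 had 133, 157 and 122 normalized counts in combined stress, against 563, 702 and 654 in control, without overlap and in opposite directions (log2 changes 2.65 ± 0.51 SE and -2.21 ± 0.28 SE, limma adjusted p = 0.00658 and 0.000662). In the DREB and ERF list, whose members bind drought and ethylene response elements, 2 of 22 were higher and 3 lower. Among the called members DREB2 and RAV1 (LOC100776987) were the most raised and lowered, with log2 changes of 1.55 (limma adjusted p = 0.0360) and -2.20 (limma adjusted p = 0.00247), and DREB3, with the highest mean count, was not called (log2 change 0.25, limma adjusted p = 0.510). NAC factors had 0 or 2 higher without combined stress library 3, or any single control library, or water deficit library 1, but 7 or 8 without heat stress library 3, or water deficit library 3, and 0 or 1 lower without combined stress library 3, or any single control library, or heat stress library 1 or 2, or water deficit library 1 or 2. MYB factors had 2 or 3 higher without combined stress library 2 or 3, or any single control library, but 9 without heat stress library 3, or water deficit library 3, and 0 to 3 lower without combined stress library 2 or 3, or any single control library, but 9 without heat stress library 3. Counts of bZIP factors were 5 higher without combined stress library 3, or control library 3, and 4 lower without combined stress library 3, or control library 2. DREB and ERF factors had 0 or 1 higher without combined stress library 1 or 3, or any single control library, and 1 lower without any single control library, but 6 without combined stress library 1. No call was made for NAC3 and NAC15 without combined stress library 3, or control library 2 or 3, LOC100811301 and DREB2 without combined stress library 1 or 3, or any single control library, and MYB142 without combined stress library 2 or 3, or control library 1 or 3 (limma adjusted p = 0.0506 to 0.125). Calls were also lost for MYB142 with a pseudocount of 10 (adjusted p = 0.0737) and DREB2 with no variance trend (adjusted p = 0.0504). A library left out put the log2 change at -2.69 and -3.87 for MYB142 without control library 2 or 3.

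Cysteine-rich receptor-like kinases, cell surface proteins that take part in defence signalling, were lower in 12 of 57 members and higher in 0, against 7.32% and 6.71% of all genes. CRK62 (LOC100775428) had 710.4, 354 and 245 normalized counts in combined stress, against 5271, 7378 and 5330.2 in control. The combined stress libraries were several-fold below the controls, with a log2 change of -3.90 ± 0.35 SE (adjusted p = 9.82e-05 by limma). CRK75 (LOC100787936) had 662, 889.8 and 832 normalized counts in combined stress, against 3028, 3881 and 2442 in control (log2 change -1.96 ± 0.28 SE, limma adjusted p = 0.00151), and CRK39 (LOC100305452), with the highest mean count, had 6768, 5814 and 4279 normalized counts in combined stress, against 12492, 17543 and 11358 in control (log2 change -1.30 ± 0.35 SE, limma adjusted p = 0.0321). The kinase list had 6 or 7 lower without any single control library. In the pathway from phenylalanine to flavonoids and isoflavonoids 4 of 61 genes were higher and 6 lower, against 6.71% and 7.32% of all genes. GMPAL2.1, phenylalanine ammonia-lyase, the entry enzyme, had 764, 1504 and 523 normalized counts in combined stress, against 5829, 6841 and 5641 in control, and fell (log2 change -2.85 ± 0.54 SE, limma adjusted p = 0.00632). CHS13 (LOC100775264), chalcone synthase, had 1032, 373 and 389 normalized counts in combined stress, against 124, 61.7 and 124 in control, and rose (log2 change 2.42 ± 0.47 SE, limma adjusted p = 0.00669), as did FLS1, flavonol synthase, with 717, 1155 and 788 normalized counts in combined stress, against 394, 312 and 302 in control (log2 change 1.38 ± 0.23 SE, limma adjusted p = 0.00339). CHR2 (LOC100786750), chalcone reductase and the member with the highest mean count, rose by 0.93 (limma adjusted p = 0.0308). The flavonoid list had 2 higher without combined stress library 2 or 3, or any single control library, and 2 lower without combined stress library 3, or control library 2 or 3. The call was lost for CRK39 without combined stress library 2 or 3, or any single control library, and CHR2 without any single one of the 6 libraries (limma adjusted p = 0.0537 to 0.130). Other settings ended calls for CHR2 with no filter on low values (adjusted p = 0.0527).

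Fatty acid desaturases, which set how fluid membranes are, were lower in 6 of 19 members and higher in 0, against 7.32% and 6.71% of all genes. FAD8-1, an omega-3 desaturase of the chloroplast, had 72.7, 204 and 78.4 normalized counts in combined stress, against 589, 458 and 690.3 in control. The groups did not overlap, and the log2 change was -2.43 ± 0.41 SE (adjusted p = 0.00347 by limma). SLD1.3 and SLD1.6, sphingolipid desaturases, fell, with log2 changes of -2.10 ± 0.35 SE (adjusted p = 0.00291 by limma) and -1.99 ± 0.33 SE (adjusted p = 0.00280 by limma). FAD2-2, with the highest mean count, had 28891, 8596 and 3717 normalized counts in combined stress, against 10905, 9509 and 11425 in control, overlapped widely and was not called (log2 change -0.12, limma adjusted p = 0.923). The desaturase list had 3 lower without combined stress library 3, or control library 1 or 3. ACS1, which makes the precursor of ethylene, had 73.5, 70.4 and 62.4 normalized counts in combined stress, against 15, 12.2 and 8.37 in control, and rose (log2 change 2.47 ± 0.44 SE, limma adjusted p = 0.00447), while the jasmonate enzymes AOS2 and AOC6 fell, AOS2 with 347, 430.0 and 231 normalized counts in combined stress, against 788, 958 and 1157 in control (log2 change -1.55 ± 0.25 SE, limma adjusted p = 0.00263) and AOC6 with a log2 change of -2.07 (limma adjusted p = 0.0431). The ethylene and jasmonate list had 2 of 12 higher and 2 lower, against 6.71% and 7.32% of all genes. That list had 1 higher without combined stress library 2 or 3, or any single control library, or heat stress library 1, or water deficit library 1, and 1 lower without combined stress library 2 or 3, or any single control library, or heat stress library 1, or water deficit library 1 or 2, but 4 without combined stress library 1, or heat stress library 3. Among gibberellin enzymes, 1 of 8 was higher and 2 lower, against 6.71% and 7.32% of all genes. GA3OX6 (LOC100808546) had a log2 change of 1.24 (limma adjusted p = 0.0143), and GA20OX3 (LOC100305378) one of -3.53 (limma adjusted p = 0.0105). The gibberellin list had 0 higher without control library 1 or 2, and 0 or 1 lower without combined stress library 3, or control library 1 or 3. Calls ended for AOC6 without combined stress library 2 or 3, or any single control library, or heat stress library 1, or any single water deficit library, GA3OX6 without control library 1 or 2, and GA20OX3 without control library 3 (limma adjusted p = 0.0511 to 0.134). Processing choices ended calls for AOC6 with edgeR, with no variance trend and with the 6 compared libraries alone (adjusted p up to 0.10). The log2 change became -1.19 and -2.80 for AOC6 without combined stress library 1 or 3, and -2.85 and -4.46 for GA20OX3 without combined stress library 1 or 3.

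Antioxidant enzymes, ferritins and glutathione S-transferases, which remove reactive oxygen, hold iron and conjugate toxic compounds, had 5 of 73 members higher and 8 lower, against 6.71% and 7.32% of all genes. TCHQD1 (LOC100792543), a glutathione S-transferase, had 752, 721 and 937 normalized counts in combined stress, against 133, 143 and 119 in control, and was the most raised, without overlap (log2 change 2.59 ± 0.22 SE, limma adjusted p = 7.21e-05). SOD1, a superoxide dismutase, had 2028, 1465 and 1269.5 normalized counts in combined stress, against 740.1, 744 and 920.4 in control (log2 change 0.96 ± 0.23 SE, limma adjusted p = 0.0169). The ferritins parted. SFERH-3 had 5819, 6455 and 6329 normalized counts in combined stress, against 3441, 3017 and 3719 in control, and rose (log2 change 0.87 ± 0.19 SE, limma adjusted p = 0.0110), whereas SFERH-2 had 1526, 118 and 455 normalized counts in combined stress, against 8749, 6834 and 2207 in control, and fell (log2 change -3.54 ± 1.0 SE, limma adjusted p = 0.0360). CAT4, a catalase and the member with the highest mean count, was above control in each library but not called (log2 change 0.49, limma adjusted p = 0.432), and CAT3 fell (log2 change -1.08, limma adjusted p = 0.0177). The list had 2 higher without control library 2, and 2 to 5 lower without combined stress library 2 or 3, or any single control library, but 13 without combined stress library 1. Calls did not hold for SOD1 without control library 1 or 2, SFERH-3 without control library 2, SFERH-2 without combined stress library 2 or 3, or control library 1 or 2, or water deficit library 1, and CAT3 without any single control library (limma adjusted p = 0.0505 to 0.121). Calls also ended for SFERH-2 with edgeR and with no variance trend (adjusted p up to 0.0719). By leaving out a library the log2 change came to -2.61 to -4.45 for SFERH-2 without combined stress library 1 or 2, or control library 3.

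Transcripts of microRNA genes were read as precursors, so the values do not give the mature microRNAs. Of 70 tested, 4 were higher and 6 lower, against 6.71% and 7.32% of all genes. MIR408A, whose mature product targets copper proteins, had 41.3, 29.8 and 59.2 normalized counts in combined stress, against 546, 451 and 509 in control. MIR397A, whose product targets laccases, had 1.65, 1.66 and 2.4 normalized counts in combined stress, against 49.3, 48.0 and 51.3 in control. Both fell without overlap, with log2 changes of -3.55 ± 0.52 SE (adjusted p = 0.00160 by limma) and -4.13 ± 0.69 SE (adjusted p = 0.00312 by limma), and MIR408C and MIR408D fell too (log2 changes -2.35 and -1.92, limma adjusted p = 0.00607 and 0.000662). MIR9758 rose, with 197, 142 and 199 normalized counts in combined stress, against 9.69, 4.57 and 11.5 in control (log2 change 4.30 ± 0.54 SE, limma adjusted p = 0.000674). MIR397A averaged under 10 in combined stress and MIR9758 under 10 in control. Each passed the filter through the other group alone, so its direction was fixed. The counts of precursors called are a description of the tested members. MIR4996, with the highest mean count, was not called (log2 change -0.66, limma adjusted p = 0.599). The list of precursors had 1 or 2 higher without combined stress library 2 or 3, or control library 3.

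**Figure D4:**
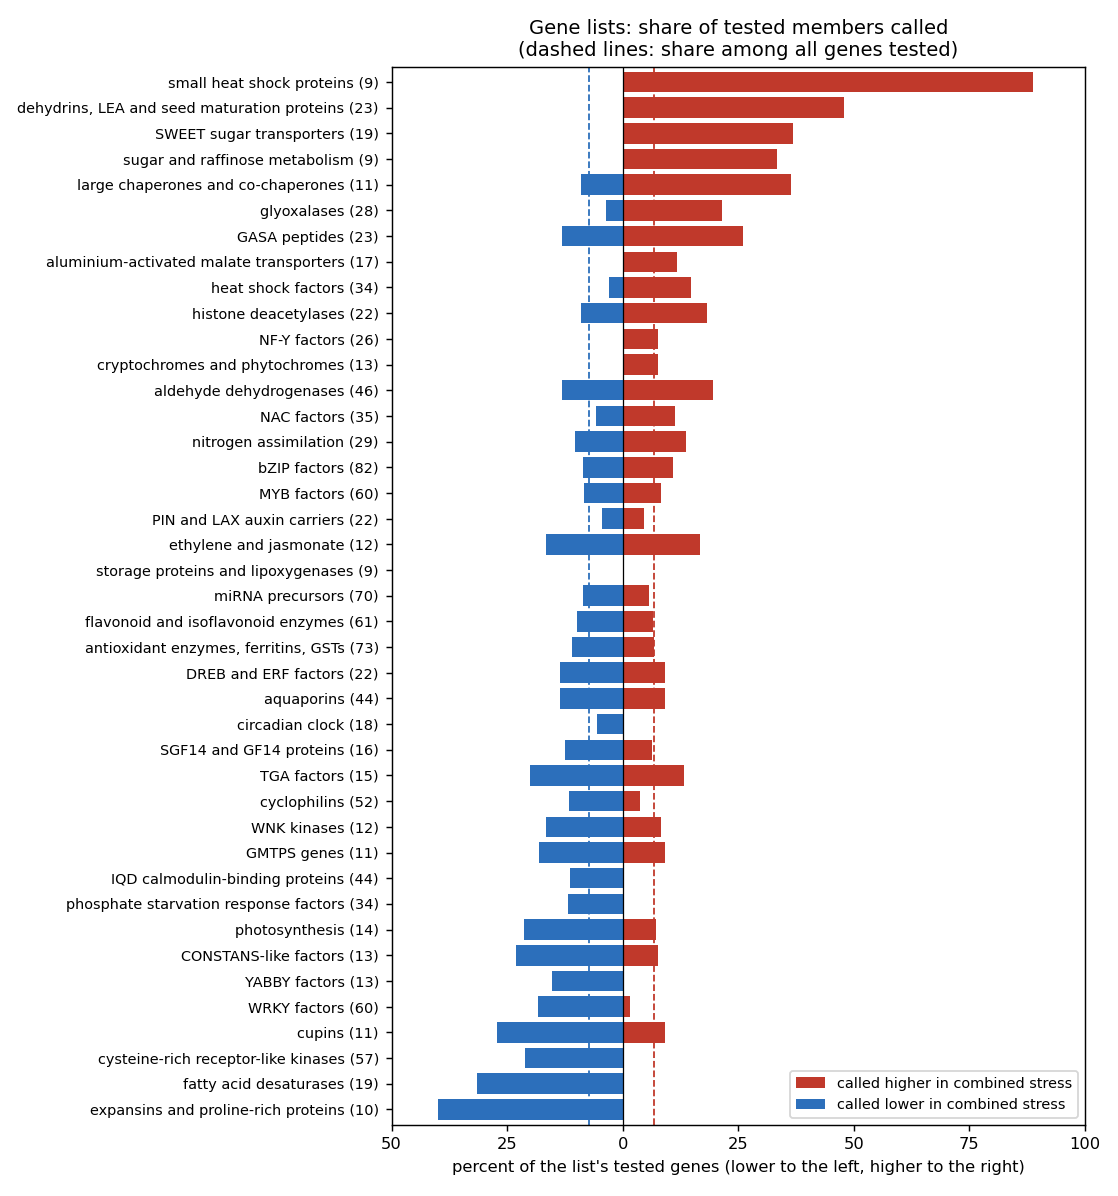
Share of each list's tested members that were called higher (red, to the right) or lower (blue, to the left) in combined stress, for lists with at least 9 tested members, whose number stands in brackets. Dashed lines mark 6.71% and 7.32% of all genes tested. Small heat shock proteins, dehydrins and SWEET transporters extend furthest to the right, and expansins with proline-rich proteins, desaturases, cupins and CONSTANS-like factors furthest to the left. Members that passed the filter through a single group alone had to differ.

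The circadian clock list had 1 of 18 members called, which was lower, against 6.71% of all genes higher and 7.32% lower. At an unadjusted limma p under 0.05 there were 9 of the 18 members, against 9848 of all 32852 genes tested. ELF3A, an evening complex gene, had 1721, 879.9 and 1136 normalized counts in combined stress, against 2352, 2885 and 2277 in control (log2 change -1.06 ± 0.27 SE, limma adjusted p = 0.0249). GMGIA, with the highest mean count, was not called (log2 change 0.13, limma adjusted p = 0.761). The clock list had 1 higher without heat stress library 3, and 0 lower without combined stress library 2 or 3, or any single control library, but 5 without combined stress library 1, or heat stress library 3. Of vegetative storage proteins and lipoxygenases, 0 of 9 were called by limma, edgeR or DESeq2, with 0 at an unadjusted p under 0.05, and VLXB, a lipoxygenase with the highest mean count of them, had a log2 change of 0.51 (limma adjusted p = 0.533). No call was made for ELF3A without combined stress library 2 or 3, or any single control library (limma adjusted p = 0.0591 to 0.0884).

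Combined stress was also set against each single stress, in the same fit. These comparisons share the combined stress libraries with the comparison above, so their values are given side by side and no overlap is drawn from them. Against heat stress 1706 genes (5.19%) were called, 795 (2.42%) higher and 911 (2.77%) lower, and against water deficit 4187 (12.7%), 1962 (5.97%) higher and 2225 (6.77%) lower. Heat stress library 3 stood apart, with 300 genes at least 4-fold above both others of its group and 287 at least 4-fold below both, and the count against heat stress was 6743 without it, 384 without heat stress library 1, 545 without heat stress library 2, 467 without combined stress library 3, 1081 without control library 1, 1076 without control library 2 and 1101 without water deficit library 1. Against water deficit the count was 1215 without combined stress library 3, 2705 without combined stress library 2, 6391 without heat stress library 3, and 2101, 1950 and 2624 without water deficit libraries 1, 2 and 3. Single genes were followed through such fits only against control, so whether the calls below against a single stress would hold was not tested. Small heat shock proteins were higher than in water deficit in 8 of 9 members and higher than in heat stress in 2 of 9. Dehydrins, LEA and seed maturation proteins were higher than in heat stress in 7 of 23 members, and against water deficit 1 was higher and 2 lower. BAG6A had 603, 1151 and 1948 normalized counts in heat stress and 21.5, 11 and 42.5 in water deficit. Its log2 change was 0.98 (limma adjusted p = 0.340) against heat stress and 6.59 (limma adjusted p = 0.000135) against water deficit. DEHYDRIN had 1.26, 13.9 and 17 in heat stress and 1220.5, 137 and 7872 in water deficit, with log2 changes of 10.24 (limma adjusted p = 0.00219) and 3.22 (limma adjusted p = 0.112). Thus BAG6A was called against water deficit and DEHYDRIN against heat stress, and neither was called against the other single stress. GOLS and MAT1 were, like DEHYDRIN, called against heat stress (log2 changes 4.39 and 5.39, limma adjusted p = 0.0364 and 0.00283) and not against water deficit (log2 changes 1.08 and 0.91, limma adjusted p = 0.532 and 0.416). HSP17.3-B and HSP22.5 were called against water deficit (log2 changes 6.54 and 7.11, limma adjusted p = 0.000290 and 0.00155) and not against heat stress (log2 changes 2.08 and 3.44, limma adjusted p = 0.0768 and 0.0528). HSP17.5-M was higher than in both single stresses, with log2 changes of 2.84 (limma adjusted p = 0.0360) against heat stress and 6.99 (limma adjusted p = 0.000361) against water deficit, as was HSP6834-A (log2 changes 3.52 and 7.08, limma adjusted p = 0.00772 and 9.09e-05). RCA03 was also higher than in both: it had 214, 401 and 1787 in heat stress and 341, 254 and 323 in water deficit, with log2 changes of 3.66 (limma adjusted p = 0.00730) and 4.48 (limma adjusted p = 0.00160). ALDH18B1 was higher by 5.16 (limma adjusted p = 0.00156) and 3.96 (limma adjusted p = 0.00295), and ICL1 by 6.63 (limma adjusted p = 0.00834) and 5.43 (limma adjusted p = 0.0106). LHCB1-7, COL22 and GS1-GAMMA were lower than in both single stresses, with log2 changes against heat stress of -3.78 (limma adjusted p = 0.0291), -2.42 (limma adjusted p = 0.00834) and -2.72 (limma adjusted p = 0.0247), and against water deficit of -4.52 (limma adjusted p = 0.00831), -3.51 (limma adjusted p = 0.000848) and -3.47 (limma adjusted p = 0.00546). MIR408A was lower than in water deficit (log2 change -3.53, limma adjusted p = 0.00289) and not called against heat stress (log2 change 0.19, limma adjusted p = 0.869).

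**Figure D5:**
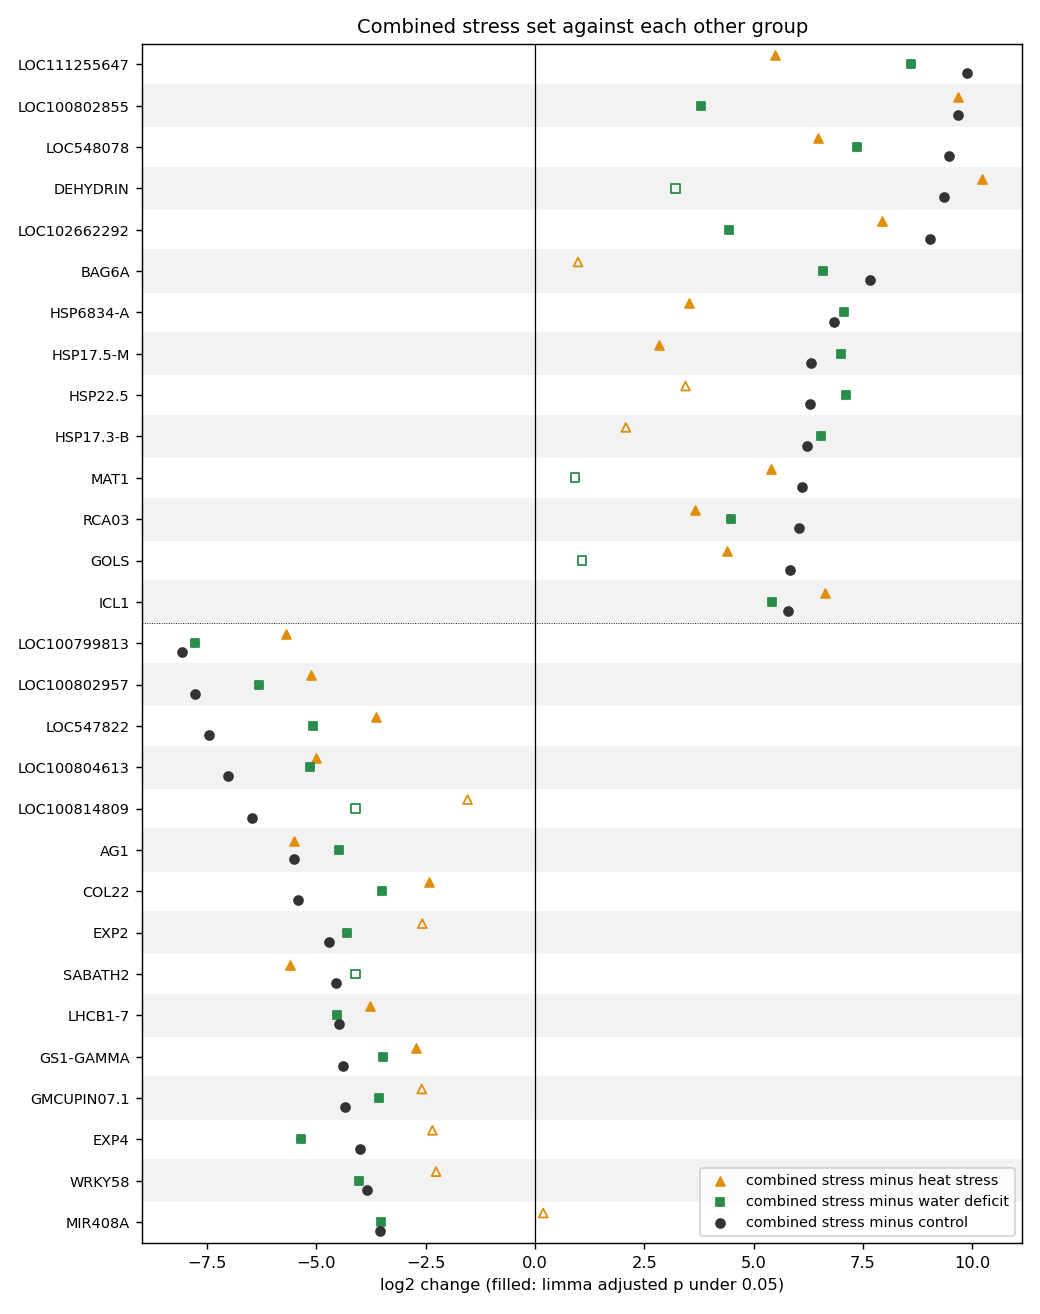
Log2 change of the 29 genes with the largest increases and decreases (dotted line between them) for combined stress minus heat stress (triangles), minus water deficit (squares) and minus control (circles). Filled symbols have a limma adjusted p under 0.05. Symbols are open against both single stresses for LOC100814809, against water deficit also for DEHYDRIN, MAT1, GOLS and SABATH2, and against heat stress also for BAG6A, HSP22.5, HSP17.3-B, EXP2, GMCUPIN07.1, EXP4, WRKY58 and MIR408A.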

How the data were processed

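Total RNA of soybean leaves was sequenced on an Illumina platform after extraction with a Qiagen kit, per the labels' protocols. The submitters' processing notes name cutadapt 1.18, FastQC 0.11.7, STAR 2.4.0.1 and DESeq2 1.20.0. The genome build, annotation and counting rules were not given in the sources used here, so single members of near-identical or overlapping gene families are uncertain. The values the authors deposited are a normalized signal, read counts per gene divided by 1 factor per library, with no correction for gene length. Whole reads were recovered from their steps in 100% of values (tolerance 0.01), at 26077068 to 46186226 reads a library over all 12.

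Samples were grouped by the treatment in the labels, 3 libraries a group, numbered in accession order. Genes averaging 10 or more over the 6 libraries compared were kept, and log2(value + 1) was fitted with limma 3.58.1 (R 4.3.3) over 12 libraries in 4 groups, with a trended prior, two-sided tests and Benjamini-Hochberg adjustment over 32852 genes. Groups shared 1 estimate of the spread. Of the genes tested, 31817 (96.8%) matched the RefSeq table of Glycine_max_v4.0, which supplied names only. Sequences were not used here. Alternatives were pseudocounts of 0.5 and 10, no filter and a mean of at least 100, other scalings, the 6 libraries alone, edgeR 4.0.16 and DESeq2 1.42.0 on recovered reads, and each library left out. Figures used matplotlib 3.10.9. On simulated data with 200 changed genes among 32852, limma recovered 6% of 2-fold and 70% of 4-fold changes with 7 of 83 calls false. There edgeR made 77 calls, and 39.9% of DESeq2's 193 calls were false. Far fewer genes were changed than were called in the data, so these rates do not carry over.

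The members and gene lists were chosen with earlier results of these data known. Genes named were the 5 largest increases and decreases among genes averaging 100 or more whose groups did not overlap, the 10 largest each way among genes with a name other than LOC, and in each list the member with the highest mean and the called members with the largest change each way. Other members named were chosen after their values were seen. Intervals of ratios are exact binomial intervals at 95%, and bounds for genes at 0 use a floor of 3 reads per library.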

Additional observations from a re-analysis of the deposited data

How the results depend on the processing

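No paired analysis was possible because the groups share no replicate numbers in the labels. The 4608 calls were 6941 with DESeq2, 3525 of them higher, and 3736 to 4858 under the 10 other settings tried without leaving out a library. With DESeq2, edgeR, the filter at a mean of at least 100 and equal totals, more genes were higher than lower. Leaving out 1 library gave 2037 to 6622 calls, with 967 to 3198 higher, 1070 to 3424 lower and 1773 to 4074 of at least 2-fold. Against heat stress the count was 3768 with DESeq2, 123 with the 6 libraries alone and 384 to 6743 with a library left out. Against water deficit it was 6957, 2782 and 1215 to 6391. The cause was not tested. The median log2 change of all genes was 0.06 with equal totals, against -0.01 as reported. Over 319 genes followed singly and the settings other than a library left out, 3294 values kept their side of the threshold and direction, 149 lost the call, 7 gained one and 5 turned round. Those that turned round were FAD2-2, at 0.38 with DESeq2 and 0.40 with edgeR, and ATG8i, at 0.019 with DESeq2, 0.026 with edgeR and 0.038 with equal totals, both not called. With a library left out, genes not called changed sign within ranges of -0.94 to 0.057 for DNAJ, -0.46 to 1.93 for GMHSF-08, -0.34 to 0.41 for PM37, -0.058 to 0.24 for GMGIA, -0.39 to 0.0076 for GMALMT21, -0.58 to 0.078 for GMSPX8, -0.47 to 0.16 for GMLAX3, -0.90 to 0.57 for FAD2-2, -0.15 to 0.27 for NYC1_1, -0.19 to 0.48 for LOC100795506 (HDT4), -0.25 to 0.038 for LOC100793353 (TGA23) and -0.24 to 0.17 for ATG8i. With 3 libraries a group, 6% of simulated 2-fold changes were called, but only 200 of 32852 genes were changed there. The adjustment is stricter when few genes change, so this share does not carry over to the comparison with 4608 calls.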

Other observations

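Peptides of the GASA family, small cysteine-rich proteins regulated by gibberellin, had 6 of 23 tested members higher and 3 lower, against 6.71% and 7.32% of all genes. The GASA list had 1 lower without combined stress library 3, or any single control library. GASA17 (LOC100813571) had 106, 52.2 and 49.6 normalized counts in combined stress, against 8.81, 3.81 and 3.14 in control, a log2 change of 3.51 ± 0.49 SE (adjusted p = 0.00118 by limma). GASA5 (LOC100805590) had 1.65, 8.28 and 0 normalized counts in combined stress, against 188, 64.8 and 177 in control, in the other direction (log2 change -5.48 ± 1.43 SE, limma adjusted p = 0.0267). Neither pair of groups overlapped. GASA16 (LOC106794922), at 0 in combined stress, was at least 18.3-fold lower. GASA17 averaged under 10 in control, and GASA5 and GASA16 averaged under 10 in combined stress. Each passed the filter through the other group alone, so its direction was fixed. The GASA counts are a description of the tested members. Among cupins, 3 of 11 were lower and 1 higher. The cupin list had 1 lower without combined stress library 3, or any single control library. GMCUPIN07.1 had 19.0, 101 and 12 normalized counts in combined stress, against 489, 385 and 1208 in control (log2 change -4.36 ± 0.81 SE, limma adjusted p = 0.00528). In the list of phosphate starvation response factors 4 of 34 were lower and 0 higher. The list had 1 higher without heat stress library 3, and 2 lower without control library 1 or 3. GMPHR5 had 3.30, 5.80 and 8.0 normalized counts in combined stress, against 78.4, 109.7 and 103 in control (log2 change -3.92 ± 0.54 SE, limma adjusted p = 0.00115), and control held all the high values. It averaged under 10 in combined stress, so it passed the filter through control alone and had to be lower. Aluminium-activated malate transporters had 2 of 17 higher and 0 lower, though 1 lower without heat stress library 3. GMALMT1 had 442, 311 and 261 normalized counts in combined stress, against 67.0, 62.5 and 72.2 in control (log2 change 2.28 ± 0.23 SE, limma adjusted p = 0.000204). Among WNK kinases, 1 of 12 was higher and 2 lower. The WNK list had 0 higher without combined stress library 2 or 3, or any single control library, but 2 or 3 without combined stress library 1, or heat stress library 3. WNK5 had 25.6, 30.7 and 28.0 normalized counts in combined stress, against 151, 194 and 181 in control (log2 change -2.59 ± 0.41 SE, limma adjusted p = 0.00247). The call was lost for GASA5 without combined stress library 3, or any single control library (limma adjusted p = 0.0509 to 0.108). Calls were also lost for GASA5 with a pseudocount of 10 (adjusted p = 0.0563). Log2 changes moved to -4.71 and -6.32 for GASA5 without combined stress library 2 or 3, and -3.76 and -5.24 for GMCUPIN07.1 without combined stress library 2 or 3.

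Further families were counted only, and their counts stand against the same 6.71% and 7.32% of all genes. IQD calmodulin-binding proteins had 0 higher and 5 lower of 44. They had 1 higher without combined stress library 1, and 2 or 3 lower without combined stress library 3, or any single control library, but 10 without heat stress library 3. Cyclophilins had 2 higher and 6 lower of 52. They had 1 higher without combined stress library 3, or any single control library, and 2 or 3 lower without combined stress library 2 or 3, or control library 3, but 10 without combined stress library 1. Histone deacetylases had 4 higher and 2 lower of 22. They had 2 higher without combined stress library 3, and 0 or 1 lower without combined stress library 2 or 3, or any single control library, or water deficit library 1 or 2. TGA factors had 2 higher and 3 lower of 15. They had 1 higher without combined stress library 3, or control library 3. SGF14 and GF14 proteins had 1 higher and 2 lower of 16. They had 0 higher without combined stress library 3, or any single control library, but 2 without water deficit library 3, and 0 or 1 lower without combined stress library 2 or 3, or control library 1 or 3. Genes named GMTPS had 1 higher and 2 lower of 11. They had 1 lower without combined stress library 3, or any single control library, but 4 without heat stress library 3. NF-Y factors had 2 higher and 0 lower of 26. They had 1 higher without control library 1 or 2, and 1 or 4 lower without combined stress library 1, or heat stress library 3. PIN and LAX auxin carriers had 1 higher and 1 lower of 22. They had 0 higher without combined stress library 2 or 3, or control library 1 or 3, or water deficit library 1 or 2, but 3 without heat stress library 3, and 0 lower without any single one of the 6 libraries. LBD factors had 0 higher and 2 lower of 7. They had 0 or 1 lower without combined stress library 3, or any single control library, or water deficit library 2. YABBY factors had 0 higher and 2 lower of 13. They had 0 or 1 lower without combined stress library 2 or 3, or any single control library, or water deficit library 1. Cryptochromes and phytochromes had 1 higher and 0 lower of 13. They had 2 or 3 higher without combined stress library 1, or heat stress library 3. Limma called 0 of 8 SPX proteins, 0 of 7 protein disulfide isomerases and 0 of 6 autophagy proteins, with 1, 2 and 1 at an unadjusted p under 0.05. There was 1 lower without combined stress library 1 among SPX proteins and 1 higher without heat stress library 3 among disulfide isomerases. DESeq2 called 1 autophagy protein, and edgeR called 0 members of these lists.

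The called genes were also placed in the gene order of the RefSeq assembly. Among genes next to a gene called higher, 9.94% were called higher, against 6.72% of all genes in the 21404 adjacent pairs tested. Beside genes called lower, 11.4% were called lower, against 7.23%. HSP6834-A and HSP17.3-B stood in a run of 3 adjacent genes called higher, and HSP18.5-C in another. Neighbouring genes in such runs can be near-identical copies, and how reads were divided among copies was not given in the sources used here.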
